A study of Mus musculus with 8 samples.

Results

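The 10 genes described here encode integrin subunits through which epithelial and stromal cells hold on to the extracellular matrix, namely Itga1, Itga2, Itga3, Itga5, Itga6, Itga11, Itgav, Itgb1, Itgb4 and Itgb6. They were chosen by symbol from a fixed list, and all 10 were found among the 15047 gene symbols of the RNA-Seq data. The data come from the pancreas of 8 male mice, 3 C57BL/6 WT mice on a Low-Fat Diet (LFD), 3 C57BL/6 WT mice on a High-Fat Diet (HFD) and 2 leptin-deficient C57BL/6J ob/ob mice on standard chow. The diets began at the age of 4 weeks, LFD and HFD were given for 10 weeks, and fat gave 60% of the calories of the HFD. The study gives the animals as carriers of an orthotopic transplant of mT organoids, which are organoids of mouse pancreatic tumors, whereas the sample labels name only the pancreas. Host and transplanted cells were therefore measured together, and ob/ob mice differ from the LFD mice in both genotype and chow. Values of single mice are listed in the order of their replicate numbers. Each mouse gave 1 library, and the error of every value is the spread between mice.

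Integrins are receptors made of an alpha and a beta chain, and each pair spans the membrane and binds matrix outside the cell and the actin or keratin cytoskeleton inside it. The beta1 chain pairs with many alpha chains. With alpha1, alpha2 or alpha11 it binds collagen, with alpha3 or alpha6 it binds laminin of basement membranes, and with alpha5 it binds the RGD sequence of fibronectin. The beta4 chain pairs with alpha6 and anchors epithelial cells through hemidesmosomes. The beta6 chain pairs with alphaV, is largely an epithelial protein, and releases active TGF-beta from its latent complex.

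The genes lie on 6 chromosomes of GRCm38 (Gencode M21). Itga2 (chromosome 13, 114833081 to 114932100) and Itga1 (chromosome 13, 114953096 to 115101964) are neighbours on the minus strand, 20995 bases apart. Itgb1 lies on chromosome 8 (128685654 to 128733200) and Itga5 on chromosome 15 (103344286 to 103366763). Itga11 lies on chromosome 9 (62677826 to 62783982), while Itga3 (95044474 to 95076801) and Itgb4 (115974709 to 116008412) lie on chromosome 11. Chromosome 2 holds Itga6 (71745616 to 71858416), Itgav (83724397 to 83806916) and Itgb6 (60598292 to 60722643). The gene Pelo lies inside Itga1 on the same strand (115088355 to 115090186), and Salmon shared any common reads between them by probability. The 250 bases before the annotated start are printed here for 4 genes, namely Itgb1, which was higher in every obese mouse, the neighbours Itga2 and Itga1, which differed from LFD in opposite directions, and Itga5, which had the largest difference in ob/ob mice. The sequences are those of RefSeq on GRCm38.p6, where 8 of the 10 genes had an entry, and are written from 5′ to 3′ on the strand of the gene. Capitals mark the GC box (GGGCGG) and the TEAD motif (GGAATG), searched on both strands together with AP-1 (TGANTCA) and TATAAA.
Itgb1 promoter (chr8:128685404-128685653, plus strand): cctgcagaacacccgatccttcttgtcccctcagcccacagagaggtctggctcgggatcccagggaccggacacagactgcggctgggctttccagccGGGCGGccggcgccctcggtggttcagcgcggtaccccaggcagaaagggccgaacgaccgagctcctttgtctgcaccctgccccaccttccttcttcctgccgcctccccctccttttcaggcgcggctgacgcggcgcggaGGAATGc
Itga2 promoter (chr13:114932101-114932350, minus strand): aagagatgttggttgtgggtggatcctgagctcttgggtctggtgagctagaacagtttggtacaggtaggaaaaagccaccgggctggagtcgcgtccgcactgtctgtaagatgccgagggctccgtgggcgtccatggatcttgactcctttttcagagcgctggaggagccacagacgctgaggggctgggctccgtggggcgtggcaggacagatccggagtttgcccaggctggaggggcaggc
Itga1 promoter (chr13:115101965-115102214, minus strand): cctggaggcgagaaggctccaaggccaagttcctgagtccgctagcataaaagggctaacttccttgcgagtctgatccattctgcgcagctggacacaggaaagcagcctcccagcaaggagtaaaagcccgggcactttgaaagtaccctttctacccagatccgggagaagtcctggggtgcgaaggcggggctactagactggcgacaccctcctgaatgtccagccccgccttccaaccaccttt
Itga5 promoter (chr15:103366792-103367041, minus strand): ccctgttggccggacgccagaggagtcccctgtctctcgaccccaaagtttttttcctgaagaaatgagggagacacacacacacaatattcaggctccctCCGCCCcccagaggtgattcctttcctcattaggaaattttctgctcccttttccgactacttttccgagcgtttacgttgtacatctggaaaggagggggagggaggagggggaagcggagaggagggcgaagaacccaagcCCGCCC
The Itgb1 window holds 1 GC box, whose first base is 151 bases before the start, and 1 TEAD motif at 7 bases before it. The Itga5 window holds 2 GC boxes, read on the other strand, at 149 and 6 bases before the start. None of the 4 motifs was found in the Itga2 and Itga1 windows. Of all 32851 promoter windows of this length, 32.7% held the GC box, 12.6% the TEAD motif, 12.4% TATAAA and 6.75% the AP-1 motif.

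Values are given as rlog values, which are read counts on the log2 scale after correction for library size, with differences shrunk for genes with few reads. Group differences come from limma, fitted on the whole table with 3 group means, with Benjamini-Hochberg adjusted p-values. No gene of the 15047 had an adjusted p-value under 0.05 in any of the 4 comparisons, so counts at an unadjusted p-value under 0.05 are given with the share of all genes that reached it. In obese against LFD mice, which compares the mean of the HFD and ob/ob groups with LFD, 2186 genes were higher and 1639 lower at that threshold, and 1823 and 2109 once each mouse was centred on its median. The share of the summed linear values taken by 28 acinar genes was 60.4% to 62.6% in LFD, 21.1% to 59.6% in HFD and 23.7% to 56.9% in ob/ob mice. HFD replicate 3 and ob/ob replicate 2 had the lowest acinar shares, while HFD replicate 1 lay close to the LFD mice.

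Of the 10 genes, 9 had a higher and 1, Itga1, a lower mean in HFD and in ob/ob than in LFD pancreas, although none passed the adjusted threshold. The median log2 difference of the 10 genes was 0.72 in HFD and 0.52 in ob/ob against LFD, where the medians of all genes were 0.03 and 0.04. Between HFD and LFD, 4 of the 10 genes had an unadjusted p-value under 0.05, all higher in HFD (Itga2, Itga3, Itgb1 and Itgb6), beside 19.8% of all genes at this threshold, 11.5% with a higher and 8.35% with a lower value. For ob/ob against LFD mice, Itga5 and Itgb1 were higher and Itga1 was lower at this threshold, which 18.8% of all genes reached, 11.6% with a higher and 7.18% with a lower value. For obese against LFD mice the count was 4 of 10, all higher (Itga2, Itga5, Itgav and Itgb1), beside 25.4% of all genes, 14.5% with a higher value. In bulk tissue, fewer cells of a type and less RNA per cell cannot be told apart. The counts moved with single mice, and so did the share of all genes. The 3 groups shared an estimate of the spread. Leaving out an HFD mouse therefore changed the p-values of ob/ob against LFD but not the differences. For HFD against LFD, 7 genes and 36.2% of all genes had an unadjusted p-value under 0.05 without HFD replicate 1, and 5 (Itga2, Itga3, Itga5, Itgb1 and Itgb6) and 18.7% of all genes an adjusted one. The unadjusted count was 1 (Itga2) without HFD replicate 2, beside 9.84% of all genes, and 2 without HFD replicate 3 or any single LFD mouse, beside 10.6% to 13.6%. Without LFD replicate 1 these were Itga2 and Itgb4, which was not among the 4 genes with all mice. For ob/ob against LFD the count was 6 without HFD replicate 1 (27.1% of all genes) and 1 without LFD replicate 1 (13%). It was 0 without LFD replicate 2 (13.8%), LFD replicate 3 (10.4%) or ob/ob replicate 2 (5%). For obese against LFD it was 8 without HFD replicate 1 (38.7% of all genes), where 6 also had an adjusted p-value under 0.05 beside 22.1% of all genes. It was 6 without ob/ob replicate 1 (30.9%), and 2 without LFD replicate 2 (17.7%) or LFD replicate 3 (13.5%).

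**Figure D1:**
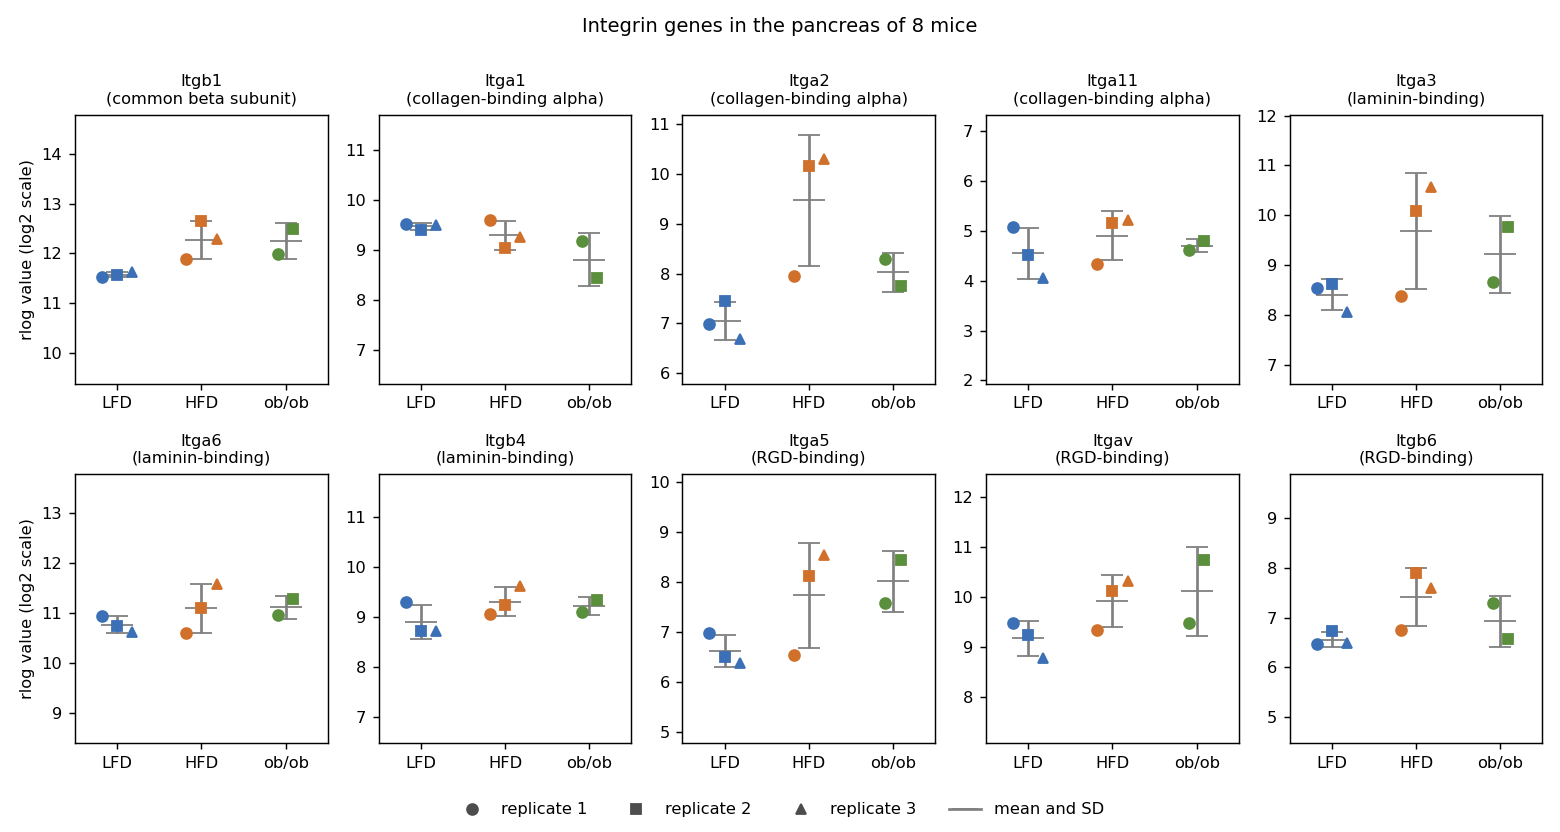
The rlog value (log2 scale, vertical axis) of each integrin gene in each mouse, with 1 symbol per replicate, the colors standing for LFD, HFD and ob/ob, and grey bars for the mean and SD of the group. The 5 obese mice all lie above the 3 LFD mice for Itgb1 and Itga2, as they do for 9.4% of all genes. HFD replicate 1 lies within or near the LFD mice for Itga3, Itga6 and Itga5.

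Itgb1, the common partner of most alpha chains in the list, was the most uniform gene among LFD mice and was higher in all 5 obese mice. It was at 11.53, 11.58 and 11.62 in the LFD mice, 11.89, 12.64 and 12.28 in the HFD mice and 11.99 and 12.50 in the ob/ob mice. The lowest obese mouse thus lay above the highest LFD mouse, a separation in this direction that 9.4% of all genes showed. The log2 difference was 0.70 in HFD (standard error 0.24, unadjusted p = 0.0190, adjusted p = 0.204 with limma) and 0.67 in ob/ob mice (standard error 0.27, unadjusted p = 0.0357, adjusted p = 0.248 with limma). In HFD the unadjusted p-value was under 0.05 in 5 of the 8 fits that left out 1 mouse, the exceptions being HFD replicate 2 and LFD replicates 1 and 2, and in ob/ob mice in 4 of 8, the exceptions being ob/ob replicate 2 and each LFD mouse. For obese against LFD mice the difference was 0.68 (95% interval 0.19 to 1.18, unadjusted p = 0.0126), and here the unadjusted p-value stayed under 0.05 whichever of the 8 mice was left out. With the acinar mean as a covariate in limma the difference was 0.43, with an unadjusted p-value of 0.0387. Itgb1 was the only one of the 10 genes under 0.05 in that fit of obese against LFD mice, beside 11.3% of all genes, a similar share.

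Among the collagen-binding chains, Itga2 had the largest difference of the 10 genes and Itga1 was the only gene with a lower mean in both obese groups. Itga2, the alpha2 chain found on epithelial cells and platelets, was at 7.00, 7.45 and 6.69 in the LFD mice. It was at 7.96, 10.16 and 10.29 in the HFD mice and at 8.30 and 7.75 in the ob/ob mice. All obese mice lay above the LFD mice, a separation in this direction that 9.4% of all genes showed. HFD replicates 2 and 3 stood apart from the other 6. The log2 difference was 2.42 in HFD (5.37-fold, standard error 0.57, unadjusted p = 0.00229, adjusted p = 0.176 with limma), and the unadjusted p-value stayed under 0.05 whichever mouse was left out. In ob/ob mice the difference was 0.98 (95% interval -0.46 to 2.43, unadjusted p = 0.158). This interval uses the spread of all groups, and the SD was 1.31 in HFD, 0.38 in LFD and 0.39 in ob/ob mice. With only ob/ob and LFD mice in the limma fit, the difference was the same and the unadjusted p-value was 0.0115. In that fit 26.1% of all genes were under 0.05. With the acinar covariate, Itga2 was higher by 1.82 in HFD (unadjusted p = 0.00730) and by 0.32 in ob/ob mice.

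Itga1, the alpha1 chain of smooth muscle, endothelium and fibroblasts, was at 9.53, 9.40 and 9.50 in the LFD mice. It was at 9.60, 9.03 and 9.25 in the HFD mice and at 9.19 and 8.43 in the ob/ob mice. HFD replicate 1 was the highest of all mice and the other 4 obese mice were below every LFD mouse. The difference was -0.67 in ob/ob (95% interval -1.25 to -0.08, unadjusted p = 0.0309, adjusted p = 0.239 with limma) and -0.18 in HFD mice (95% interval -0.71 to 0.35). Both ob/ob mice were below all LFD mice, a separation that 21.8% of all genes showed in this direction, while 5 of the 10 integrins and 24.1% of all genes were separated in the other. Without ob/ob replicate 2 the difference of Itga1 in ob/ob mice was -0.29, with an unadjusted p-value of 0.308. With the acinar covariate it was -0.36 in ob/ob (unadjusted p = 0.134) and 0.10 in HFD mice. Subtracting the rlog value of Itga1 from that of its neighbour Itga2 in the same mouse gave -2.53, -1.95 and -2.81 in the LFD mice. The same subtraction gave -1.64, 1.13 and 1.04 in the HFD mice and -0.89 and -0.68 in the ob/ob mice, a pair chosen after its values were seen and not tested. Itga11, the alpha11 chain of fibroblasts, had the lowest rlog values of the list, with rlog values of 4.05 to 5.08 in LFD, 4.34 to 5.22 in HFD and 4.61 and 4.80 in ob/ob mice. The groups overlapped, the differences were 0.35 in HFD and 0.15 in ob/ob mice, and the sign of the latter turned to -0.12 with quantile normalization.

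Among the laminin-binding chains the differences varied, with Itga3 more than 1 log2 unit above the LFD mean in 3 obese mice, and Itga6 and Itgb4 less than 1 unit from it in every mouse. Itga3 was at 8.54, 8.62 and 8.06 in the LFD mice, 8.37, 10.10 and 10.58 in the HFD mice and 8.67 and 9.77 in the ob/ob mice. HFD replicate 1 lay among the LFD mice and ob/ob replicate 1 just above them, so the group means rest on the other 3 obese mice. The difference was 1.27 in HFD (standard error 0.54, unadjusted p = 0.0431, adjusted p = 0.242 with limma) and 0.80 in ob/ob mice (95% interval -0.56 to 2.17). The unadjusted p-value in HFD was under 0.05 in 3 of the 8 fits that left out 1 mouse, those without HFD replicate 1 or either ob/ob mouse. With the acinar covariate the differences became 0.32 and -0.22. Itga6, which pairs with beta1 or beta4, was at 10.62 to 10.95 in LFD, 10.60 to 11.58 in HFD and 10.96 and 11.29 in ob/ob mice. Itgb4, the hemidesmosome chain, was at 8.71 to 9.29 in LFD, 9.05 to 9.62 in HFD and 9.09 and 9.34 in ob/ob mice. The differences of Itga6 were 0.33 in HFD and 0.35 in ob/ob mice, those of Itgb4 were 0.40 and 0.32, and the 95% interval of each included 0. Subtracting Itga6 from Itgb4 in the same mouse gave values between -2.04 and -1.66 in LFD and between -1.96 and -1.55 in the 5 obese mice, a description over 8 mice with no test.

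In the RGD-binding group, Itga5 and Itgav were highest in HFD replicate 3 and ob/ob replicate 2, whereas Itgb6 in ob/ob replicate 2 was at the LFD level. Itga5, the fibronectin receptor chain, was at 6.98, 6.49 and 6.38 in the LFD mice, 6.54, 8.12 and 8.55 in the HFD mice and 7.59 and 8.45 in the ob/ob mice. All obese mice other than HFD replicate 1 lay above the LFD mice. The difference was 1.40 in ob/ob (2.64-fold, standard error 0.55, unadjusted p = 0.0332, adjusted p = 0.244 with limma) and 1.12 in HFD mice (95% interval -0.01 to 2.25, unadjusted p = 0.0509). Itgav, which pairs with several beta chains, was at 9.49, 9.25 and 8.79 in the LFD mice, 9.33, 10.12 and 10.32 in the HFD mice and 9.49 and 10.75 in the ob/ob mice. HFD replicate 1 and ob/ob replicate 1 lay within the LFD range or at its upper end, and the other 3 obese mice lay above it. The difference of Itgav for obese against LFD mice was 0.84 (95% interval 0.08 to 1.61, unadjusted p = 0.0349, adjusted p = 0.172 with limma). Of the 8 fits that left out 1 mouse, 5 gave an unadjusted p-value under 0.05 for Itga5 in ob/ob against LFD and 3 for Itgav in obese against LFD mice. With the acinar covariate the difference of obese against LFD mice was 0.39 for Itga5 and 0.20 for Itgav.

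Itgb6, the partner of alphaV on epithelium, was at 6.47, 6.73 and 6.49 in the LFD mice, 6.76, 7.89 and 7.60 in the HFD mice and 7.29 and 6.56 in the ob/ob mice. The HFD mice were all above the LFD mice, a separation that 12.9% of all genes showed in this direction, while the ob/ob mice were split. The difference was 0.85 in HFD (standard error 0.33, unadjusted p = 0.0296, adjusted p = 0.222 with limma) and 0.36 in ob/ob mice (95% interval -0.47 to 1.20). The unadjusted p-value in HFD was under 0.05 in 4 of the 8 fits that left out 1 mouse, and was 0.0698 with the acinar covariate, where the difference was 0.76. In ob/ob replicate 2, Itgav was the highest of all mice and Itgb6 was within the LFD range. Itgb6 minus Itgav was -4.18 in this mouse, against -3.02 to -2.20 in the other 7 mice. This pair was chosen after its values were seen and was not tested.

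**Figure D2:**
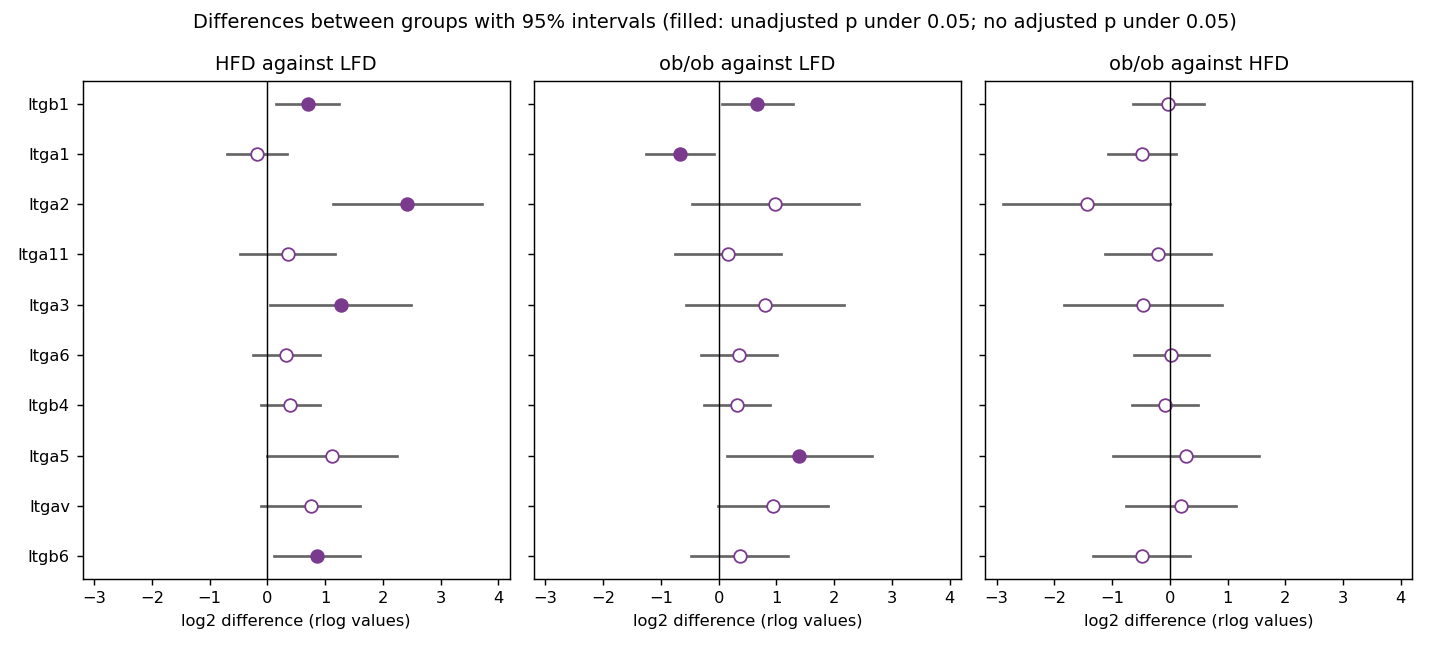
Log2 differences of rlog values (horizontal axis) for each integrin gene between HFD and LFD, ob/ob and LFD, and ob/ob and HFD, with 95% intervals from limma as bars. Filled points have an unadjusted p-value under 0.05, which holds for 4 genes in the HFD panel, 3 in the ob/ob against LFD panel and 0 in the ob/ob against HFD panel, and no gene had an adjusted p-value under 0.05.

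The HFD and ob/ob groups were also compared with each other, which tests whether the difference from LFD is the same in diet-induced and genetic obesity. None of the 10 genes had an unadjusted p-value under 0.05 with limma in this comparison, which 3.91% of all genes reached, 2.28% with a higher and 1.63% with a lower value in ob/ob mice. The groups overlapped for all 10, while 7.92% of all genes were separated with higher and 5.42% with lower ob/ob values. Itga2 came closest, with a difference of -1.44 in ob/ob against HFD mice (95% interval -2.89 to 0.00, unadjusted p = 0.0502). The p-value of Itga2 was under 0.05 with each mouse centred on its median, with quantile normalization, with the acinar covariate and without HFD replicate 1. The interval for Itgb1 was -0.64 to 0.59 around a difference of -0.02, and those of Itga3 (-1.83 to 0.90) and Itga5 (-0.98 to 1.54) were wider than 2 log2 units. Without HFD replicate 1, Itga2, Itga3 and Itgb6 had an unadjusted p-value under 0.05, beside 6.56% of all genes. Without ob/ob replicate 1 only Itga1 did, beside 7.42% of all genes.

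Levels of different genes can be set beside each other only per length, so the rlog value less the log2 of the length in kilobases of the longest coding transcript was used. In LFD mice Itgb1 had the highest level per kilobase, 9.64 ± 0.05 (SD, n = 3, log2 scale), followed by Itga6 with 8.66 ± 0.17. Itgav (6.36 ± 0.36), Itgb4 (6.27 ± 0.34), Itga3 (6.13 ± 0.30) and Itga1 (6.02 ± 0.07) followed, and each overlapped its neighbour in this order. Itga5 (4.49 ± 0.32), Itgb6 (4.30 ± 0.15) and Itga2 (4.22 ± 0.38) formed a lower set that overlapped in the same way, and Itga11 was lowest with 2.24 ± 0.52. In HFD mice the mean level per kilobase of Itga2 was 6.64 and its place in this order moved from 9 to 6, above Itga1 at 5.84. In ob/ob mice Itga2 was at 5.20, just below Itga1 at 5.35. With the union of all exons as the length, a choice made after seeing the data, Itga6 came to 7.60 and remained in place 2. Itgav moved from place 3 to place 5. In LFD mice Itga1 came to 5.26 instead of 6.02, while Itga2 stayed at 4.21. The close order of Itga2 and Itga1 in ob/ob mice thus depends on the length used.

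The mice of a group also differed from each other. HFD replicate 3 was the highest of the 8 mice for 6 of the 10 genes, HFD replicate 2 for 2, and HFD replicate 1 and ob/ob replicate 2 for 1 each. LFD replicate 3 was the lowest for 5 genes. The median distance of the 10 genes from the LFD mean was 0.14 in HFD replicate 1, 1.00 in HFD replicate 2 and 0.92 in HFD replicate 3. It was 0.28 in ob/ob replicate 1 and 0.61 in ob/ob replicate 2.

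Marker lists of the cells that the tissue can hold also differed between these mice. All 28 acinar genes had lower means in obese than in LFD mice, with a median difference of -1.99. Relative to LFD, the acinar list mean was -3.85 in HFD replicate 3, -3.54 in ob/ob replicate 2 and -1.95 in HFD replicate 2, and 0.11 in HFD replicate 1. Since acinar genes make up a large part of the summed values, the share of any other list also depends on them, so list means and shares are both given. Of 12 fibroblast genes, 11 had a higher mean in obese mice, with list means of 8.89 to 9.31 in LFD, 9.67 to 10.31 in HFD and 10.03 and 10.75 in ob/ob mice. Their summed share was 0.0192% to 0.0336% in LFD, 0.0345% to 0.467% in HFD and 0.0794% to 0.560% in ob/ob mice. The mean of 11 leukocyte genes was 7.16 to 7.91 in LFD, 8.14 to 8.94 in HFD and 8.45 and 8.95 in ob/ob mice, with shares of 0.0127% to 0.0269%, 0.0257% to 0.182% and 0.0592% to 0.372%. Of 10 ductal genes, 7 had a higher mean in HFD than in LFD mice, and all 10 had a lower mean in ob/ob than in HFD mice. The ductal list mean was 0.75 and 0.86 above LFD in HFD replicates 2 and 3 and -0.74 relative to LFD in ob/ob replicate 2, the mouse in which Itgb6 was at the LFD level. The ductal share was 0.0216% to 0.0307% in LFD, 0.0247% to 0.358% in HFD and 0.0420% to 0.0849% in ob/ob mice. In ob/ob replicate 2 the ductal measures went opposite ways, with the lowest list mean of all mice (8.58) and a share of 0.0849%, above LFD. The mean of 10 endothelial genes was at most 0.51 above the LFD mean, in HFD replicate 3. The endothelial share was 0.00257% to 0.00528% in LFD, 0.00330% to 0.0320% in HFD and 0.00709% and 0.0191% in ob/ob mice. The mean of 5 mural genes was 6.86 to 7.27 in LFD, 6.86 to 7.92 in HFD and 7.18 and 7.20, within the LFD range, in ob/ob mice. Their share was 0.00156% to 0.00255% in LFD, 0.00208% to 0.0199% in HFD and 0.00438% and 0.0107% in ob/ob mice. The basal markers Krt5 and Trp63 were not among the 15047 symbols of the data, and no other listed marker was missing. Of the 3 basal markers found, Krt14 and Krt17 had a higher and Krt6a a lower mean in both obese groups than in LFD mice. None of them had an unadjusted p-value under 0.05 with limma. The part of these cell types in the integrin differences was not tested. The fits with the acinar covariate cannot decide it, because all 28 acinar genes were lower in obese mice and the covariate thus varies with the groups.

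**Figure D3:**
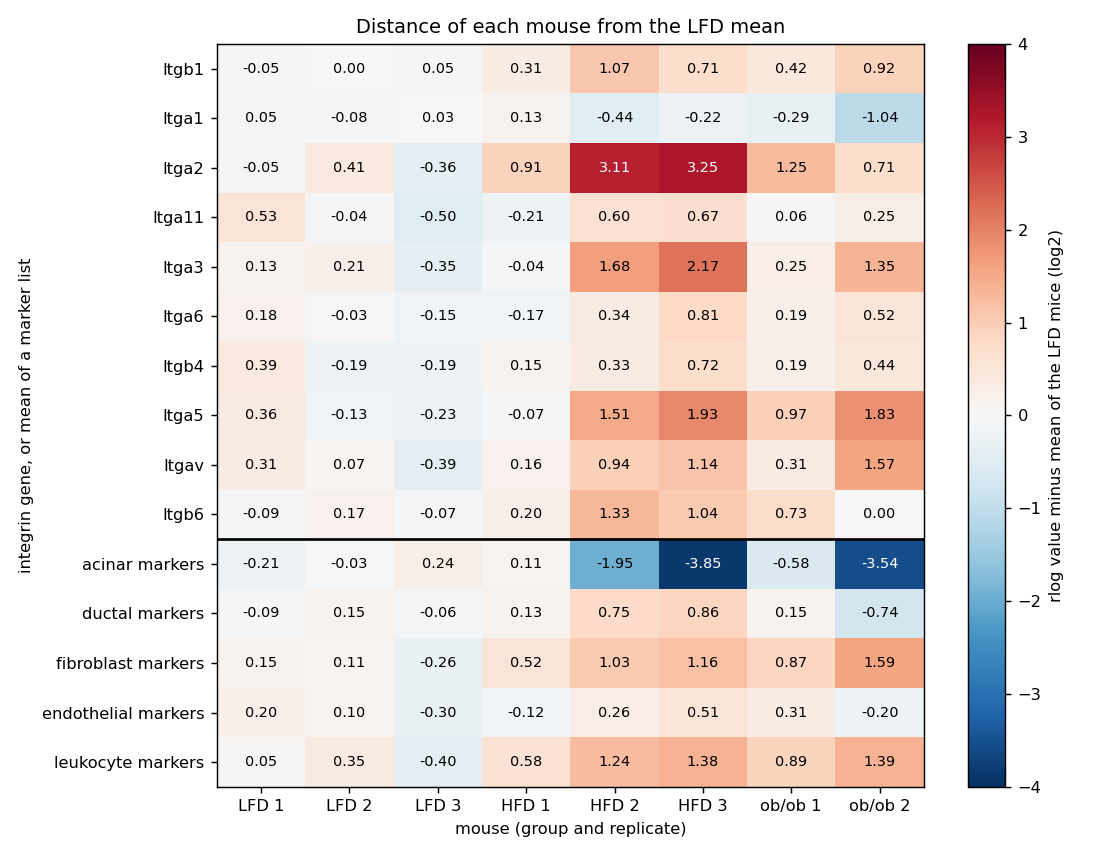
Distance of each mouse (columns) from the mean of the 3 LFD mice for the 10 integrin genes and for the mean of 5 marker lists (rows), as rlog values on the log2 scale, with red for higher and blue for lower. HFD replicates 2 and 3 and ob/ob replicate 2 have the highest integrin medians (1.00, 0.92 and 0.61) and the lowest acinar means, -1.95, -3.85 and -3.54, and the ductal mean of ob/ob replicate 2 is -0.74.

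The other genes of integrin adhesion were counted from lists written with earlier results of these data known. Of 10 further integrin chains, 9 had a higher mean in obese than in LFD mice and 4 had an unadjusted p-value under 0.05, all higher, beside 14.5% of all genes with a higher value, with a median log2 difference of 0.76 where that of all genes was 0.04. Itgb3, the beta chain of the platelet and vitronectin receptors, differed by 1.21 (unadjusted p = 0.0214), Itga9 by 0.96 (unadjusted p = 0.0513) and Itga4, the alpha4 chain of leukocytes and fibroblasts, by 0.90 (unadjusted p = 0.00925). None of these, nor any gene of the lists that follow, had an adjusted p-value under 0.05 with limma.

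Median differences in obese against LFD mice were larger for the collagen and RGD ligand genes than for the receptors, which was not tested. The laminin median of 0.79 was close to the 0.76 of the further integrin chains. All 10 collagen genes were higher in obese mice with an unadjusted p-value under 0.05, with a median difference of 1.61. Of all genes, 14.5% were higher and 10.9% lower at this threshold. Col1a1, the main fibrillar collagen chain, was higher by 2.17 (standard error 0.40, adjusted p = 0.0853 with limma), Col5a1 by 1.95 and Col6a3 by 1.72. The fibroblast markers share 3 genes with these collagens (Col1a1, Col1a2 and Col3a1). Of 9 RGD ligands and related genes, 7 were higher and 1 was lower at this threshold, with a median of 1.21. Tnc, which encodes tenascin C, was higher by 1.96 and Fbn1, fibrillin 1, by 1.87, while Vtn, vitronectin, was lower by a log2 difference of -1.93. Of 11 laminin and related genes, 10 had a higher mean and 3, or 27.3%, an unadjusted p-value under 0.05, near the 25.4% of all genes, with a median of 0.79. Lama1 differed by 1.38 (unadjusted p = 0.00351) and Lama3 by 1.30 (unadjusted p = 0.0524).

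Lama3 encodes an epithelial laminin chain, found in a ligand of the alpha3beta1 and alpha6beta4 integrins. Lama3 was at 8.34, 8.50 and 7.79 in the LFD mice, 8.50, 10.50 and 11.55 in the HFD mice and 8.99 and 8.69 in the ob/ob mice. Lamb3, a partner chain of Lama3, chosen after its values were seen, was at 8.96, 9.66 and 9.15 in LFD, at 8.89, 10.24 and 11.10 in HFD, and at 8.997 and 8.65 in ob/ob mice. HFD replicates 2 and 3 were the highest mice for both chains, as they were for Itga2 and Itga3.

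Inside the cell, integrins are switched on by talin and kindlin and linked to actin by vinculin, paxillin, filamin and the ILK complex. Of 29 genes of this adhesion core, 22 had a higher mean in obese than in LFD mice, 4 were higher and 2 lower with an unadjusted p-value under 0.05, and the median difference was 0.33. These 6 genes are 20.7% of the list, below the 25.4% of all genes at this threshold. Flna, filamin A, was higher by 1.27 (unadjusted p = 0.0238) and Fermt3, the kindlin of blood cells, by 1.09 (unadjusted p = 0.0206). Lims2, a partner of ILK, was lower by a log2 difference of -0.89 (unadjusted p = 0.0239). Of 7 hemidesmosome and tetraspanin genes, 5 had a higher mean and 2, or 28.6%, were higher at the threshold, near the 25.4% of all genes, Dst by 0.87 and Cd9 by 0.75, while Plec differed by 0.46 (unadjusted p = 0.307). Col17a1, also on this list, was not among the 15047 symbols of the data.

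**Figure D4:**
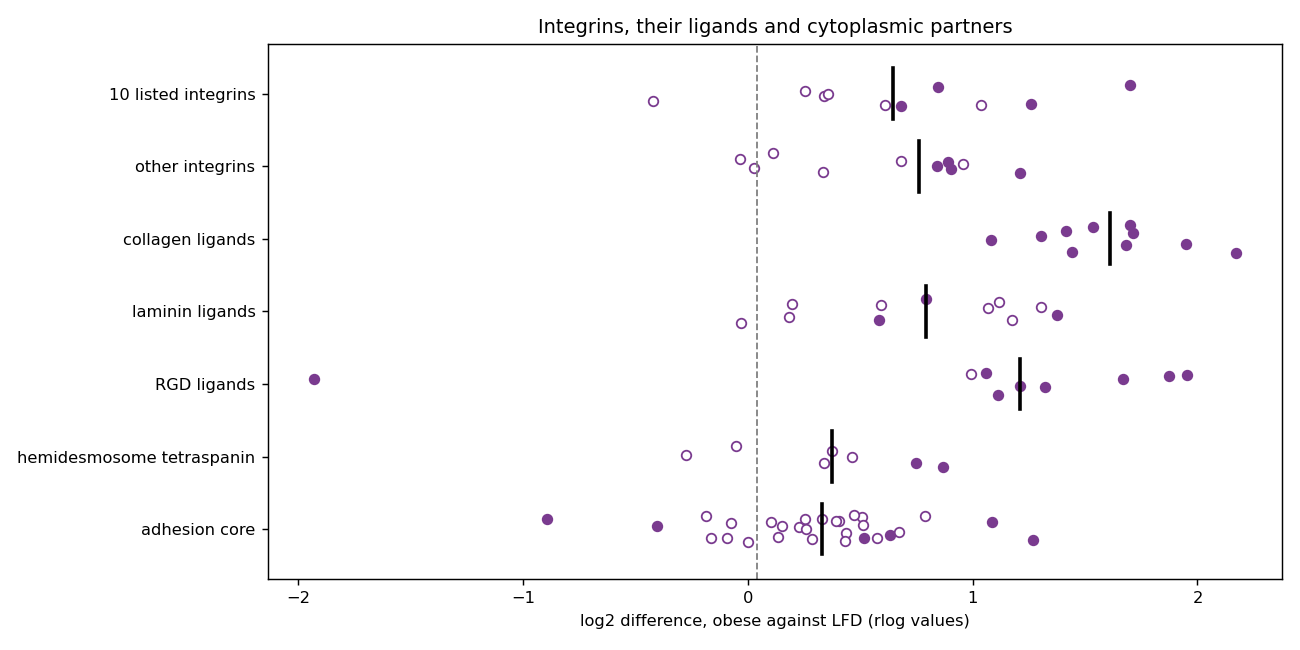
Log2 difference of rlog values between obese and LFD mice (horizontal axis) for the 10 integrins and for 6 lists of other integrins, ligands and cytoplasmic partners, with 1 point per gene and filled points for an unadjusted p-value under 0.05. Black bars are the list medians, from 0.33 for the adhesion core to 1.61 for the collagen genes, and the dashed line is the median of all genes, 0.04.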

How the data were processed

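Total RNA from 8 pancreata was sequenced with paired ends. The authors ran FastQC, Salmon 0.11.3 on the Gencode M18 transcripts (GRCm38.p6), tximport to sum transcripts per gene, and the rlog function of DESeq2 1.22.2. The deposited values are these rlog values, adjusted for library size on the log2 scale, for 15047 symbols, and how genes were filtered is not given in the sources used here. Read counts were not used here, so the depth of each mouse is unknown and a count model could not be applied. The rlog step shrinks differences of genes with few reads, and Salmon shares reads of similar transcripts by probability.

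Groups come from the sample titles, and replicates are different animals. The tests used limma 3.58.1 (R 4.3.3) on all genes and all 8 mice, with group means, a variance trend and Benjamini-Hochberg adjustment. For each gene the 3 groups shared an estimate of the spread. This step was tested on simulated data. HFD and ob/ob share the LFD mice as controls, and no batch is labelled. The 10 genes and all lists were chosen with earlier results of these data known. All 10 genes are named, and from each of 6 partner lists the 3 genes with the largest difference between obese and LFD mice, except 1 that is not reported here. Alternatives left out the trend, the third group, genes with a mean under 5 or each mouse in turn, centred each mouse on its median, applied quantile normalization, or added the replicate number or the acinar mean to the model. Leaving out HFD replicate 3 with ob/ob replicate 2, and exon union lengths, were added after seeing the data. Coordinates and lengths are from Gencode M21 on GRCm38, promoters from RefSeq.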

Additional observations from a re-analysis of the deposited data

How the results depend on the processing

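The count of the 10 integrins with an unadjusted p-value under 0.05 depended on the model and on single mice. Apart from the spread shared by the groups, what moved the count was not tested. With the acinar covariate it was, against LFD, 2 instead of 4 for HFD, 0 instead of 3 for ob/ob and 1 instead of 4 for obese mice, and 3 instead of 0 between ob/ob and HFD. The share of all genes at this threshold also differed there, 10.8% instead of 19.8%, 10.1% instead of 18.8%, 11.3% instead of 25.4% and 7.86% instead of 3.91%. Without HFD replicate 3 and ob/ob replicate 2 it was 2 for HFD (13.6% of all genes) and 0 for ob/ob against LFD (6.18%), with the single remaining ob/ob mouse assumed to vary like the other groups. With only the groups compared it was 6 for ob/ob against LFD (26.1%), and with centring or quantile normalization 1 (Itga2) for ob/ob against HFD (4.05% and 4.14%). Leaving out 1 mouse gave, against LFD, 1 to 7 for HFD, 0 to 6 for ob/ob and 2 to 8 for obese mice, and 0 to 3 between ob/ob and HFD. Adjusted p-values under 0.05 numbered 0 to 5 for HFD and 0 to 6 for obese against LFD when 1 mouse was left out, and 0 in the other alternatives and comparisons.

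The sign of some differences turned, mostly of small ones but also of Itga3 in ob/ob against LFD, 0.80 with all mice and no covariate. With the acinar covariate, Itga1 was at 0.10 and Itga6 at -0.0577 for HFD against LFD, and Itga11 was at -0.22, Itga3 at -0.22 and Itga6 at -0.0625 for ob/ob against LFD. It also gave -0.00484 for Itga6 in ob/ob against HFD, and -0.11 for Itga11 and -0.0601 for Itga6 in obese against LFD. Quantile normalization gave -0.12 for Itga11 in ob/ob against LFD, -0.00629 for Itga11 in obese against LFD and 0.0569 for Itgb1 in ob/ob against HFD, where Itgav was at -0.24 without HFD replicate 3 and ob/ob replicate 2. Leaving out 1 mouse gave -0.0938 to 0.42 for Itga11 in ob/ob against LFD. For ob/ob against HFD it gave -0.28 to 0.23 for Itgb1, -1.12 to 0.0838 for Itga3, -0.22 to 0.27 for Itga6, -0.21 to 0.0769 for Itgb4, -0.32 to 0.71 for Itga5 and -0.43 to 0.82 for Itgav.

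With the replicate number as a block the counts against LFD were 5 for HFD (21.6% of all genes), 3 for ob/ob (21.6%) and 6 for obese mice (27.6%), and 0 between ob/ob and HFD (3.1%). The labels give no pairing. Same-numbered mice deviated from the group means with correlations of -0.28 to 0.59. With groups of 2 or 3 mice, whose deviations are bound to each other, these cannot show whether mice were paired. The small groups, of 2 or 3 mice, and the unknown depth limit the precision of every difference.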
